A study of Mus musculus with 6 samples.

Results

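Shank, Dlgap and Homer proteins form the inner scaffold of the postsynaptic density, the protein layer under the membrane of excitatory synapses, and the 10 genes that encode them in the mouse (Shank1 to Shank3, Dlgap1 to Dlgap4, Homer1 to Homer3) are described here. The members were taken by family name out of 52550 genes in the count table, and 56 of the 40961 events in the splicing table belong to them. They were chosen by an earlier look at gene counts and exon inclusion (PSI) in these same libraries, although the rule itself sets no threshold on a value. The values below are therefore a description of these genes, and none of the p-values is independent support for a pattern among them.

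Hippocampal tissue came from 3 control mice and 3 with the label L-DL KD, all male C57BL/6 J, which received adeno-associated virus (AAV) in CA1 on both sides of the brain at 8 weeks of age. The L-DL KD virus carried shRNAs against L-DL, the long protein isoform of the RNA binding protein hnRNP DL, under H1 promoters, which are active in most cell types, and a zsGreen reporter under the neuronal CamkIIα promoter. The control virus carried control shRNA and was given at a higher titre. The methods describe no sorting of cells. The labels name the control mice wild type (WT), give AAV injection for both groups, and in one place call the modified mice hnRNP DL-/-.

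Dlgap proteins, also called SAPAP or GKAP, bind the guanylate kinase domain of PSD-95 and its relatives, which hold glutamate receptors at the synapse. Their C-terminal ends are bound by the PDZ domain of Shank proteins, which assemble through their SAM domains and carry proline-rich stretches for Homer and cortactin. Homer proteins use an EVH1 domain to hold Shank, group I metabotropic glutamate receptors and the IP3 receptor, and their long forms join through a coiled coil. Homer1 also gives short forms without the coiled coil, which are made after neuronal activity and loosen the linkage.

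Several of these genes carry very short exons, and 6 of the 8 member events with an unadjusted p under 0.05 were of this kind. The 9 exons of 51 nt or less that could be tested are given first, with the exon in capitals between the 20 bases before it and the 20 bases after it in the spliced transcript, 5′ to 3′. The build is GRCm38, the sequences come from GENCODE transcripts, and each exon is coding and has a length that is a multiple of 3. The first 6 are those in which inclusion was lower in the L-DL KD-labelled libraries at an unadjusted p under 0.05, and the last 3 are shown for contrast.
Shank2, 21 nt, chr7:144408056-144408076: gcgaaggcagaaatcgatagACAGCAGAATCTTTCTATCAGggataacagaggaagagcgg
Dlgap2, 42 nt, chr8:14823574-14823615: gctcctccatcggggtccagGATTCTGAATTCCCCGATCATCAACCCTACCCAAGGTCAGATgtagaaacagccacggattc
Shank1, 24 nt, chr7:44344298-44344321: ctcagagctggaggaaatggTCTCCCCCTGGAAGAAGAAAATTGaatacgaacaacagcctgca
Shank3, 24 nt, chr15:89538015-89538038: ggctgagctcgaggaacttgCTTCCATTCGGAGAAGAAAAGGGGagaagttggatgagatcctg
Homer1, 36 nt, chr13:93386345-93386380: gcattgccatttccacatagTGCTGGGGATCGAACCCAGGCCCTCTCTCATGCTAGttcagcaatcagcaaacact
Shank2, 9 nt, chr7:144396638-144396646: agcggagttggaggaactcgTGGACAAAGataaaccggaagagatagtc
Dlgap1, 30 nt, chr17:70718196-70718225: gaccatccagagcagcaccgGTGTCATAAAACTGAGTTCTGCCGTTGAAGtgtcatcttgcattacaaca
Shank1, 27 nt, chr7:44334033-44334059: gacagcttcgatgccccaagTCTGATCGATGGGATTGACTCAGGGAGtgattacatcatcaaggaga
Shank2, a further 21 nt, chr7:144398241-144398261: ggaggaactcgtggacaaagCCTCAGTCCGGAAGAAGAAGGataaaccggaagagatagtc
All are on the plus strand. The bases before the further Shank2 exon hold the whole 9 nt exon and the end of the exon ahead of it. The Shank1 24 nt, Shank2 9 nt and Shank3 24 nt exons each follow an exon of 81 nt. The 20 bases before them were identical at 14 positions between Shank1 and Shank2, at 14 between Shank1 and Shank3 and at 15 between Shank2 and Shank3. The 20 bases after them were identical at 7, 5 and 12 positions in the same pairs. In these events the exon that follows has 69 nt in Shank1 and 131 nt in Shank2 and Shank3.

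Reads counted on genes numbered 16052529 to 16995425 in the controls and 16525467 to 17913064 in the L-DL KD-labelled libraries, and correlations of log2 CPM (counts relative to the library total, scaled by edgeR's TMM method) between libraries were 0.987 to 0.989 within the controls, 0.973 to 0.988 within the other group and 0.955 to 0.969 between them. Hnrnpdl, the targeted gene, had 2862, 3120 and 2689 counts in the controls and 3939, 2680 and 2904 counts in the L-DL KD-labelled libraries, with a log2 fold change of 0.03 ± 0.12 (SE) and an adjusted p of 0.898 in edgeR. No fall was detectable, the count does not separate the long isoform, and every direction below is for the L-DL KD-labelled libraries. The study assessed its knockdown by immunoblots of L-DL protein in injected hippocampus, which gene counts do not measure. Markers of other cells also moved. Of 8 neuron markers, 6 were lower, Nefl was higher and Syn1 missed the threshold, and their summed level was 4372 to 4584 CPM in the controls against 2742 to 3229 CPM. All 6 microglia markers were higher (734 to 936 against 1619 to 1986 CPM summed). Lower calls were made for 4 of 5 interneuron markers (568 to 646 against 206 to 376 CPM), 3 of 4 CA1 pyramidal markers (248 to 311 against 158 to 233 CPM), 2 of 4 dentate granule markers and the glutamatergic marker Slc17a7. Astrocyte markers were mixed, with 2 of 5 lower and 1 higher, while 1 of 5 oligodendrocyte and 2 of 3 endothelial markers were higher. No marker was at 0 in any library, and the part of these shifts in the results below was not tested. In bulk tissue, fewer cells of a type and less RNA per cell cannot be told apart.

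To determine how the scaffold genes were expressed, their counts were compared in a fit across 17621 genes. Dlgap3, Homer1, Shank3, Homer3, Shank2, Dlgap1 and Dlgap4 had lower counts in the L-DL KD-labelled libraries at an adjusted p under 0.05, Shank1, Dlgap2 and Homer2 missed this threshold, and none was higher. Of all genes tested, 15.0% were lower and 15.6% were higher by the same call. The median log2 fold change was -0.50 over the 10 members and 0.01 over all genes tested. In 8 of the 10 members all 3 L-DL KD-labelled libraries were below all 3 controls, which was also the case for 23.4% of all genes. These directions depend on the scaling. Scaled to the summed neuron markers, an alternative added after the data were seen, the median of all genes moved to 0.57, Dlgap3 alone stayed lower at an adjusted p under 0.05, Shank1 and Dlgap4 were called higher, and Shank2, Dlgap1, Dlgap2 and Homer2 had positive values.

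Among the Shank genes, Shank3 differed most between the groups. Shank3 (ENSMUSG00000022623, chr15:89499623-89560261), whose loss causes synaptic and behavioural deficits in mice, had 4507, 4331 and 4030 counts in the controls and 3306, 2628 and 2398 counts in the L-DL KD-labelled libraries. In CPM this was 278, 255 and 256 against 182, 147 and 143, so that the groups lay apart. The log2 fold change was -0.74 ± 0.10 (SE, adjusted p = 0.00145, quasi-likelihood test of edgeR, Benjamini-Hochberg adjusted over all genes). Shank2 (ENSMUSG00000037541, chr7:144001928-144424494), a family member also known as ProSAP1, had 264, 236 and 261 CPM in the controls and 176, 178 and 163 CPM in the other group. The raw counts behind these levels were 4291, 4013 and 4116 against 3199, 3167 and 2734. Both groups were tight and did not overlap, with a log2 fold change of -0.56 ± 0.07 (SE, adjusted p = 0.00121 in edgeR). Shank1 (ENSMUSG00000038738, chr7:44310253-44360572), the most abundant family member here, had 10298, 9147 and 9424 counts against 10511, 10566 and 9387. Its levels were 635, 538 and 598 CPM against 579, 592 and 559 CPM, and the groups overlapped. The log2 fold change of -0.03 ± 0.08 (SE, adjusted p = 0.785 in edgeR) was smaller than the spread between the controls.

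Dlgap3 had the lowest ratio of all members. Dlgap3 (ENSMUSG00000042388, chr4:127169204-127237022), a scaffold gene whose loss in mice is known for excessive grooming, had 4350, 4089 and 3763 counts in the controls and 1801, 1066 and 779 counts in the L-DL KD-labelled libraries. These were 268, 241 and 239 CPM against 99.2, 59.8 and 46.4 CPM. Each L-DL KD-labelled library had between 18.6% and 39.8% of the control mean, and the 3 of them also differed more among themselves than the controls did. The log2 fold change was -1.86 ± 0.24 (SE, adjusted p = 0.00122 in edgeR), a level 3.64-fold lower. Scaled to the neuron markers it was -1.32.

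The other Dlgap genes differed much less. Dlgap1 (ENSMUSG00000003279, chr17:69969073-70821413), the most highly counted Dlgap, had 9494, 9100 and 8796 counts in the controls and 7261, 8720 and 7729 in the other group, or 585, 535 and 559 CPM against 400, 489 and 461 CPM. The groups did not overlap, and the log2 fold change was -0.32 ± 0.09 (SE, adjusted p = 0.0284 in edgeR). Dlgap4 (ENSMUSG00000061689, chr2:156613705-156764363), a broadly expressed member, had 4684, 4519 and 4373 counts against 3907, 4200 and 3893, or 289, 266 and 278 CPM against 215, 236 and 232 CPM. Its groups lay apart with a log2 fold change of -0.29 ± 0.07 (SE, adjusted p = 0.0149 in edgeR). Both of these calls depended on single libraries, since without control replicate 1 the adjusted p was 0.106 for Dlgap1 and 0.0652 for Dlgap4. Dlgap1 also missed the threshold without control replicate 2 (adjusted p = 0.0588) or 3 (adjusted p = 0.0815), and Dlgap4 without control replicate 3 (adjusted p = 0.0526). Dlgap2 (ENSMUSG00000047495, chr8:14095865-14847680), the least counted Dlgap, had 984, 973 and 990 counts against 832, 1005 and 642, or 60.6, 57.2 and 62.9 CPM against 45.8, 56.4 and 38.3 CPM. All 3 values were below the controls, although L-DL KD replicate 2 was close to them. The log2 fold change of -0.36 ± 0.13 (SE) missed the threshold with an adjusted p of 0.0714 in edgeR, and passed it without that library (-0.51, adjusted p = 0.0149). Without L-DL KD replicate 3 it was -0.23 with an adjusted p of 0.140.

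Homer1 had the second lowest ratio of the 10 genes. Homer1 (ENSMUSG00000007617, chr13:93299635-93405129) had 2575, 2556 and 2830 counts in the controls and 998, 1384 and 1851 in the L-DL KD-labelled libraries, or 159, 150 and 180 CPM against 55.0, 77.6 and 110 CPM. The groups did not overlap, but the L-DL KD-labelled libraries spread over a 2-fold range, from 33.7% to 67.7% of the control mean. Its log2 fold change was -1.01 ± 0.22 (SE, adjusted p = 0.0104 in edgeR). Homer3 (ENSMUSG00000003573, chr8:70282827-70294361), a member best known from cerebellar Purkinje cells, was the least counted gene, with 618, 651 and 580 counts against 544, 385 and 363. In CPM this was 38.1, 38.3 and 36.8 against 30.0, 21.6 and 21.6, with no overlap and a log2 fold change of -0.63 ± 0.14 (SE, adjusted p = 0.0109 in edgeR). Homer2 (ENSMUSG00000025813, chr7:81600481-81707527, minus strand) had 1422, 1495 and 1270 counts against 916, 1020 and 1354. L-DL KD replicate 3 had 80.7 CPM, within the controls' 87.6, 87.96 and 80.6 CPM, while the other two libraries had 50.5 and 57.2 CPM. The log2 fold change of -0.44 ± 0.16 (SE) had an adjusted p of 0.0667 in edgeR, and without that library it was -0.66 with an adjusted p of 0.00204. Without L-DL KD replicate 1 it was -0.31 with an adjusted p of 0.106. Exons of Shank1, Shank3, Dlgap1, Dlgap4, Homer2 and Homer3 overlap those of a gene on the opposite strand, and whether the counting used strand is not given in the sources used here, so that a part of these 6 counts could belong to the partner.

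**Figure D1:**
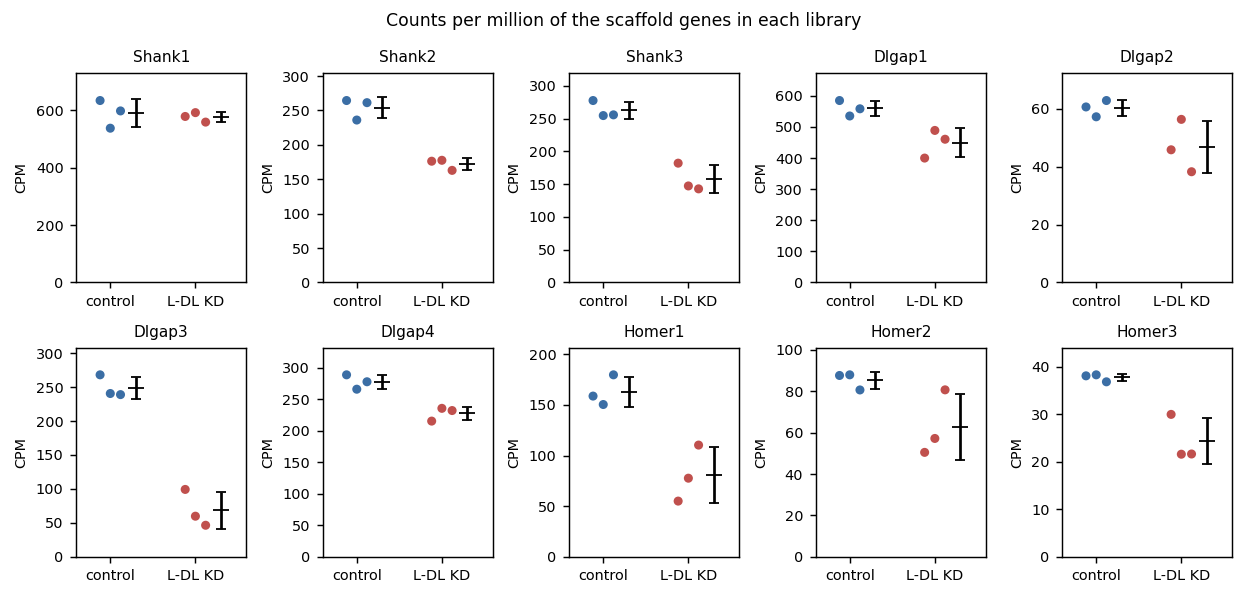
CPM (TMM-scaled, linear axis from 0) of the 10 scaffold genes, with 1 point per library, 3 controls in blue and 3 L-DL KD-labelled libraries in red, and bars for mean ± SD. Dlgap3 lies between 239 and 268 CPM in the controls and between 46.4 and 99.2 CPM in the other group, whereas the Shank1 groups overlap.

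**Figure D2:**
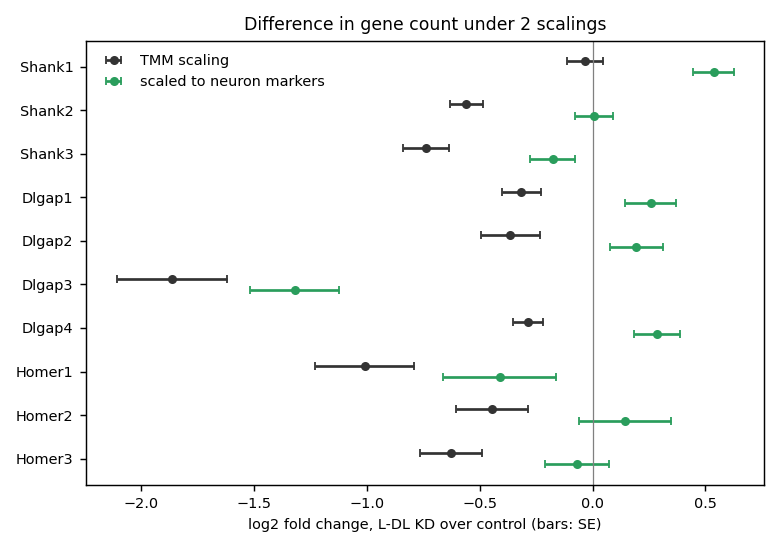
Log2 fold changes of the L-DL KD-labelled libraries over the controls with SE, under TMM scaling (black) and scaling to the summed counts of the neuron markers (green). Under the second scaling 6 of the 10 genes, Shank1 among them at 0.54, lie above 0, and Dlgap3 stays at -1.32.

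Levels of different genes were compared per length, as CPM per kb of annotated exon. In the controls, Shank1 (56.2 ± 4.64 CPM per kb, SD, n = 3) and Dlgap3 (55.1 ± 3.62) came first and overlapped. They were followed by Dlgap4 (32.8 ± 1.35), Dlgap1 (31.3 ± 1.39) and Shank3 (28.6 ± 1.41), of which each overlapped the next. Shank2 had 23.6 ± 1.44 CPM per kb, and Homer1 with 13.6 ± 1.26, Homer3 with 11.0 ± 0.23, Dlgap2 with 9.80 ± 0.46 and Homer2 with 6.77 ± 0.33 came last and did not overlap. In the L-DL KD-labelled libraries the order was Shank1 (54.9 ± 1.58), Dlgap4 (26.9 ± 1.28), Dlgap1 (25.1 ± 2.54), Shank3 (17.1 ± 2.34), Shank2 (15.998 ± 0.75) and Dlgap3 (15.1 ± 6.07), where Dlgap4 overlapped Dlgap1 and Shank3 overlapped Shank2. Dlgap3 thus moved from beside Shank1 to a range of 10.3 to 21.9 CPM per kb, which overlapped Shank2 and Shank3. Dlgap2, Homer3, Homer1 and Homer2 lay between 4.97 and 7.61 CPM per kb on average, and each overlapped its neighbour in that order. These levels use all annotated exons of a gene, whether or not they are used in the hippocampus.

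The makeup of each family was then examined as the share of a gene in the summed counts of its family, which does not depend on library scaling. Shank1 made up 53.9%, 52.3% and 53.6% of the Shank counts in the controls and 61.8%, 64.6% and 64.7% in the L-DL KD-labelled libraries. Shank3 went from 23.8% ± 0.92 to 17.3% ± 1.83 (SD, n = 3) and Shank2 from 22.9% ± 0.48 to 19.0% ± 0.31. All 3 shares lay apart between the groups. In the Dlgap family the share of Dlgap3 was 22.3%, 21.9% and 21.0% in the controls against 13.05%, 7.11% and 5.97%. Dlgap1 went from 48.8% ± 0.23 to 56.7% ± 3.56 and Dlgap4 from 24.2% ± 0.20 to 28.7% ± 0.98, both without overlap, while Dlgap2 overlapped (5.26% ± 0.24 and 5.88% ± 0.90). Homer1 made up 56.9% ± 3.19 of the Homer counts in the controls and 47.4% ± 5.97 in the other group, and Homer2 29.9% ± 2.46 and 37.3% ± 0.69. Homer3 had 22.1%, 13.8% and 10.2% in the L-DL KD-labelled libraries, on both sides of the controls' 12.4% to 13.8%. For the 8 shares that lay apart the exact two-sided permutation test gave p = 0.1, the smallest that 3 against 3 libraries allow (adjusted p = 0.125 over 10 members), so that no share can pass 0.05 in this design. Summed over each family, the L-DL KD-labelled libraries had 81.9% of the control CPM for Shank, 69.1% for Dlgap and 58.8% for Homer.

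**Figure D3:**
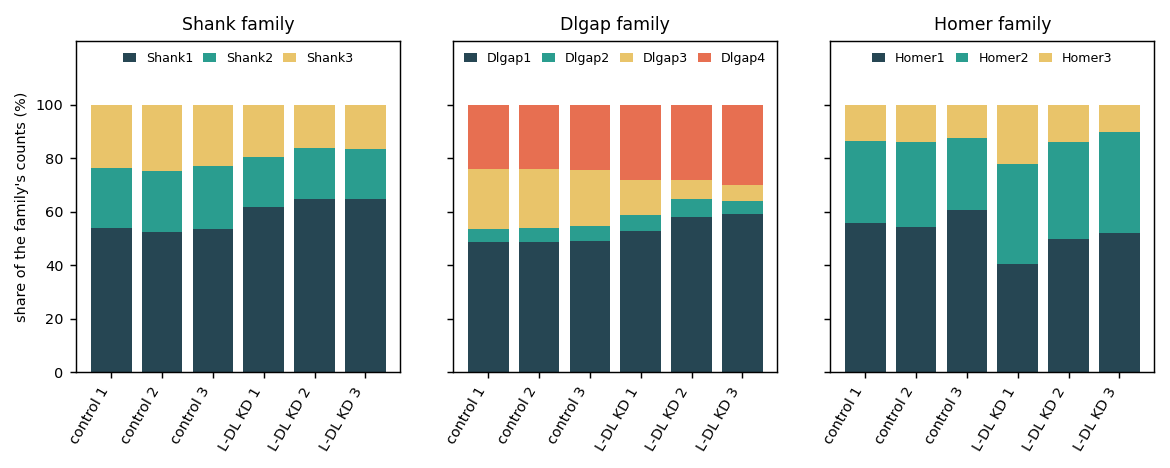
Share of each gene in the summed counts of its family, in percent, with 1 stacked bar per library and 1 panel per family. The Dlgap3 segment shrinks from about 21.7% of the controls to 8.71% on average, and the Shank1 segment grows from 53.3% to 63.7%.

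Exon usage was examined with the junction reads, which cross a splice junction and show whether a segment is included or skipped. PSI, the fraction spliced in, was computed for each library from the counts of both forms divided by their effective lengths, and PSI values are listed in the order of the splicing table, which numbers no replicates. The 56 listed events were 37 skipped exons, 7 mutually exclusive exon pairs, 8 alternative 3′ splice sites, 3 alternative 5′ splice sites and 1 retained intron. Dlgap1 had 16 of them and Dlgap3 had 1, and in 30 the mean control PSI was over 0.95. Enough reads for a test were found for 35 events. Of these, 1 passed an adjusted p under 0.05, against 0.255% of the 18829 events tested over all genes (48 events, and 0 to 52 with a library left out). Inclusion was lower at an unadjusted p under 0.05 in 7 member events and higher in 1, where all events tested gave 8.3% lower and 4.96% higher.

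The event that passed was the 21 nt exon of Shank2 before its long exon of 2407 nt. Its PSI was 0.980, 1 and 1 in the controls and 0.579, 0.487 and 0.244 in the L-DL KD-labelled libraries, so that nearly all control transcripts joined here held its 7 codons and many in the other group did not. The mean change was -0.556 (adjusted p = 0.0161, edgeR's quasi-likelihood test over all events). Reads that skip the exon were 1 of 57, 0 of 52 and 0 of 66 junction counts in the controls, and a count of 0, set at 3 counts of the total, allows a share of up to 5.77% and 4.55% (upper 95% Wilson limits 6.88% and 5.50%). In the L-DL KD-labelled libraries they were 16 of 41 (39.0%, 95% Wilson interval 25.7 to 54.3%), 26 of 54 (48.1%, 35.4 to 61.1%) and 30 of 41 (73.2%, 58.1 to 84.3%). These limits cover counting error only. The call was lost when any one of the controls was left out (adjusted p = 0.107, 0.105 and 0.120) or the second L-DL KD-labelled library was (adjusted p = 0.0718), and with limma (adjusted p = 0.0901), whereas the PSI change stayed between -0.628 and -0.460.

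Each Shank gene has 1 or more listed alternative exons behind its 81 nt exon. In each gene 1 of these had lower PSI values in the L-DL KD-labelled libraries at an unadjusted p under 0.05. Shank2 has a second alternative exon at this place, the further 21 nt exon, whose groups overlapped (0.815, 0.719 and 0.667 against 0.912, 0.375 and 0.638, adjusted p = 0.866 in edgeR). In Shank3 the 24 nt exon had PSI values of 0.941, 0.926 and 0.933 in the controls and 0.879, 0.807 and 0.804 in the other group (adjusted p = 0.197 in edgeR). In Shank1 the 24 nt exon was rarely used, with 0.0763, 0.103 and 0.0837 against 0.0432, 0.0316 and 0.0425 (adjusted p = 0.181 in edgeR). Exons of equal size at this place thus had a mean control PSI of 0.933 in Shank3 and 0.088 in Shank1. In Shank2 the 9 nt exon had 0.270, 0.732 and 0.433 against 0.108, 0.269 and 0.207 (adjusted p = 0.353 in edgeR). Its groups barely failed to overlap, on 31 to 86 counts per library, and the controls varied widely. Without the second control its mean change went from -0.284 to -0.157 (unadjusted p = 0.147 in edgeR). None of these exons passed the threshold over all events.

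Exons of Dlgap2 and Homer1 were also lower at the unadjusted level. The 42 nt exon of Dlgap2 had PSI values of 0.931, 1 and 0.954 in the controls and 0.766, 0.685 and 0.673 in the L-DL KD-labelled libraries, with no overlap, on 29 to 55 counts per library (adjusted p = 0.142 in edgeR). The 36 nt exon of Homer1, which lies between exons of 140 and 157 nt, had 0.932, 0.932 and 0.893 against 0.776, 0.842 and 0.822 (adjusted p = 0.344 in edgeR). Both groups lay apart there too, by less than in Dlgap2. Homer1 also has a listed choice of 3′ splice sites 35 nt apart at chr13:93366243-93366277. Its junction reads numbered 7, 15 and 10 in the controls and 0, 3 and 2 in the other group. These 32 and 5 reads were too few for the test, and the count of the whole gene was lower in the same libraries.

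The remaining short exons did not move in one direction. The 30 nt exon of Dlgap1 had PSI values of 0.835, 0.798 and 0.850 in the controls and 0.802, 0.841 and 0.899 in the other group, and was listed a second time with another 3′ neighbour, where the groups also overlapped. The 27 nt exon of Shank1 had 0.435, 0.432 and 0.492 against 0.378, 0.505 and 0.612. In the further 21 nt exon of Shank2, between its 9 nt exon and the 131 nt exon, the L-DL KD-labelled libraries lay on both sides of the controls.

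By length, inclusion was lower at an unadjusted p under 0.05 in 6 of 10 tested skipped exon events of 51 nt or less and in 0 of 10 longer ones, where 1 was higher. Over all genes the shares that were lower at this p were 22.6% of 1405 tested events of 51 nt or less and 10.5% of 9185 longer ones. The median PSI change of the short events was -0.10 in the members and -0.02 over all genes, and that of the longer ones was -0.0047 and -0.0033. The limit of 51 nt was set with these values known, and the 10 short events describe 9 exons.

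**Figure D4:**
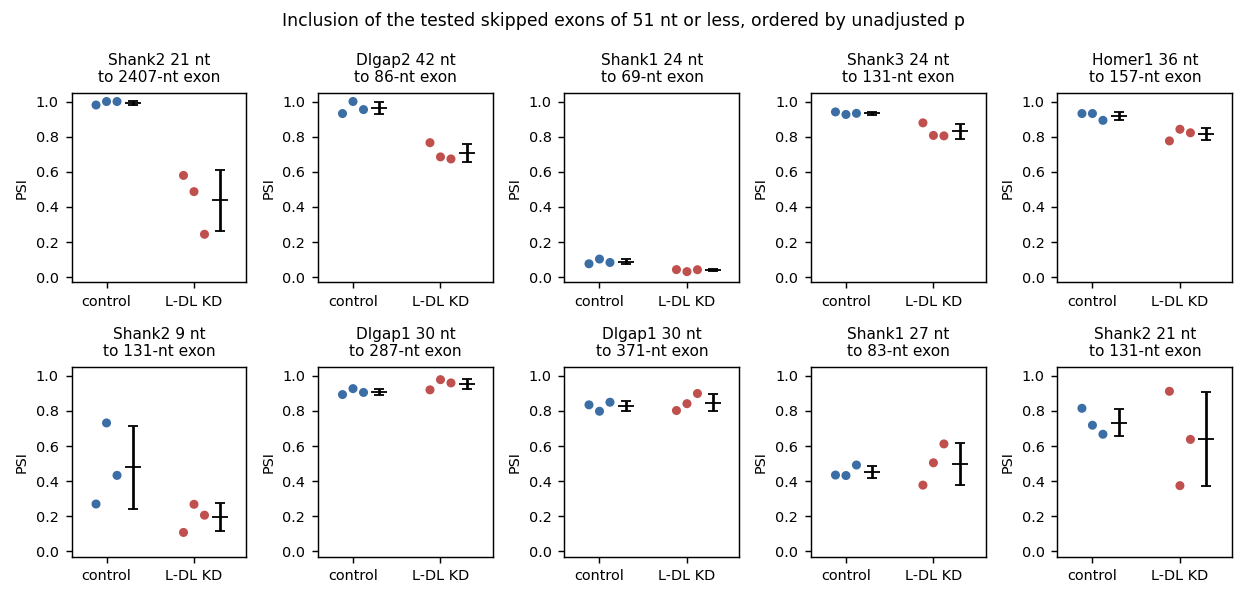
PSI of the 10 tested skipped exon events of 51 nt or less, with 1 point per library in the order of the splicing table, 3 controls in blue and 3 L-DL KD-labelled libraries in red, and bars for mean ± SD. Each panel names the gene, the exon and the length of the exon that follows. In the first 6 panels no red point reaches a blue one, and in the last 4 they overlap.

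Among the other events, 1 more was lower and 1 was higher at the unadjusted level. In Dlgap4 an 80 nt exon (chr2:156748023-156748102), of which 17 bases are coding, is listed as a pair with an 89 nt exon downstream. A 72 nt form of the second exon and a 398 nt exon that spans both are listed too. Relative to the 89 nt exon, the PSI of the 80 nt exon was 0.789, 0.750 and 0.700 against 0.697, 0.614 and 0.554 (adjusted p = 0.304 in edgeR). Other listed Dlgap4 events use the same reads. Listed as a skipped exon, the 80 nt exon had 0.991, 0.985 and 1 against 0.969, 0.988 and 0.983, with overlap (adjusted p = 0.575 in edgeR). In Shank1 the 81 nt exon itself (chr7:44343658-44343738) had slightly higher values, with a PSI of 0.987, 0.980 and 0.945 against 0.992, 0.989 and 0.996 (adjusted p = 0.323 in edgeR). For the other genes the tested event with the smallest p is given. An alternative 3′ splice site that adds 33 nt in Dlgap3 (chr4:127235385-127235417) had 0.954, 0.909 and 0.901 against 0.917, 0.891 and 0.811 (adjusted p = 0.613 in edgeR). It is the only listed event of Dlgap3, the gene with the largest difference in count, and did not pass an unadjusted p under 0.05. A splice site that adds 84 nt in Dlgap1 had a mean PSI of 0.956 ± 0.007 and 0.978 ± 0.009 (SD, n = 3, adjusted p = 0.486 in edgeR). The same 84 nt are listed a second time on more reads, with a lower mean in the L-DL KD-labelled libraries. There the means were 0.890 ± 0.030 and 0.872 ± 0.029 (SD, n = 3, adjusted p = 0.816 in edgeR). A site that adds 33 nt in Homer2 had 0.581 ± 0.073 and 0.463 ± 0.210 (SD, n = 3, adjusted p = 0.785 in edgeR), and the 157 nt exon of Homer3 had 0.968 ± 0.029 and 0.983 ± 0.030 (SD, n = 3, adjusted p = 0.856 in edgeR).

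The genes whose products bind these scaffolds were taken from 6 lists of 29 genes, all of which were tested. Lower counts were called for 21 and higher counts for 0, with a median log2 fold change of -0.50. Over all genes tested 15.0% were lower, 15.6% were higher and the median was 0.01. All 7 glutamate receptor genes were lower, most of all Grm5, the metabotropic receptor that Homer holds, with 218 ± 19.96 CPM in the controls and 129 ± 21.7 CPM in the other group (SD, n = 3, log2 fold change -0.76, adjusted p = 0.00332 in edgeR). All 4 density signalling genes were lower, with Camk2a, a kinase subunit abundant in the density, at 3998 ± 118 and 2406 ± 64.0 CPM (log2 fold change -0.73, adjusted p = 0.000324 in edgeR). Of the PSD-95 family, to which Dlgap proteins attach, Dlg2 (log2 fold change -0.54, adjusted p = 0.00227 in edgeR) and Dlg4 were lower, while Dlg1 at 0.25 and Dlg3 at 0.09 missed the threshold.

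Among Homer ligands 3 of 5 were lower, with Agap2, the GTPase PIKE, at 1001 ± 88.7 and 519 ± 126 CPM (SD, n = 3, log2 fold change -0.95, adjusted p = 0.00369 in edgeR). The calcium channels Itpr1 (0.20) and Ryr2 (-0.07), also held by Homer, missed the threshold. Of the Shank ligands 3 of 6 were lower, with Baiap2, the membrane-bending protein IRSp53, at 345 ± 22.0 and 185 ± 24.2 CPM (log2 fold change -0.90, adjusted p = 0.000749 in edgeR). Cttn, which encodes the actin binding protein cortactin, had -0.11 and was not called. Of the Dlgap ligands 2 of 3 were lower, with Dynll2, a dynein light chain, at 515 ± 29.3 and 302 ± 39.0 CPM (log2 fold change -0.77, adjusted p = 0.00132 in edgeR), while its relative Dynll1 had -0.07. Scaled to the neuron markers, 1 of the 29 was called lower and 9 were called higher.

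**Figure D5:**
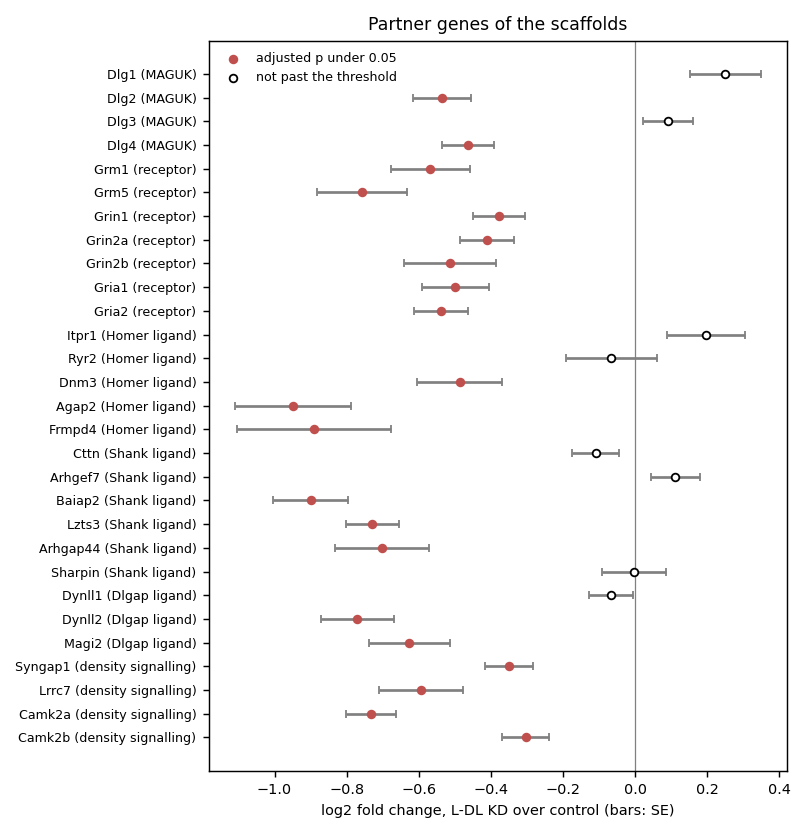
Log2 fold changes (TMM scaling) of the 29 partner genes with SE, labelled by list, where red points are past an adjusted p under 0.05 and open points are not. The 21 red points lie to the left of 0, from Camk2b at -0.30 to Agap2 at -0.95.

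The genes whose levels followed the mean log2 CPM of the 10 members most closely over the 6 libraries were Ubqln4, a ubiquilin (r = 0.999), Prkar1a, a regulatory subunit of protein kinase A (r = 0.998), and Galnt9, a glycosyltransferase (r = 0.998). Their log2 fold changes were -0.93, -0.13 and -1.55, so that closeness of pattern did not mean the same size of difference. With 6 libraries in 2 groups such values are common, and 2073 of 17611 other genes (11.8%) had an r of at least 0.9.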

How the data were processed

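Hippocampal RNA of 3 control and 3 L-DL KD mice was analysed. For each Ensembl gene the authors deposited a raw count of reads aligned to GRCm38, not normalized, and the submitters' processing notes list HISAT2 2.1.0, Bowtie 1.1.2 and HTSeq 0.6.1. The authors also deposited junction counts of rMATS for each splicing event with effective lengths, and its PSI, PSI change, p-values and FDR, of which the last 3 are the authors' own comparison and were not used. In that table sample 1 was taken as L-DL KD, because the study defines the PSI change as KD minus control. Nothing given here says that replicates shared more than a group, so p-values measure the spread between these libraries.

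Genes that reached 10 counts in 3 or more libraries were scaled by TMM and compared by the quasi-likelihood test of edgeR (version 4.0.16, R 4.3.3). Inclusion and skipping counts were tested with the same model with a library effect, for events whose mean count was 20 or more in total and 1 or more for each form. P-values were adjusted by Benjamini-Hochberg over all genes or events tested, at 0.05. Both models were tested on simulated data. Alternatives were DESeq2 (1.42.0), limma (3.58.1, pseudocount 0.5), other scalings and filters, a replicate block, PSI without lengths and leaving out each library.

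Members, lists and tests were chosen with earlier results of these data known. Named in the text were all members, the partner of each list with the largest called change in each direction, the 3 most alike genes, each member's event with the smallest p and all those with an unadjusted p under 0.05. Further partners, the remaining short exons and the Homer1 choice of 3′ splice sites were named after their values were seen. Gene positions, exons and sequences were taken from GENCODE for the same build, in Python (3.11.15).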

Additional observations from a re-analysis of the deposited data

How the results depend on the processing

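Of the 10 members, 7 were called lower with library-size scaling, 9 with DESeq2 or without the count filter (Dlgap2 and Homer2 in addition), and 6 with the replicate block (without Dlgap1, adjusted p = 0.0587). Nothing given here ties same-numbered libraries together beyond the number. Their deviations correlated at 0.06, 0.16 and -0.14, and those of differently numbered libraries at -0.22 to 0.16. With so few libraries these values cannot decide whether a batch was shared. With that block 2324 genes were lower and 2311 higher over all genes. Scaled to the neuron markers, chosen after seeing the data, 1 member was lower and 2 were higher, 1 partner gene was lower and 9 were higher, and 471 genes were lower and 10387 higher. Members with a changed direction were then Shank1 (0.54), Shank2 (0.0066), Dlgap1 (0.26), Dlgap2 (0.19), Dlgap4 (0.29) and Homer2 (0.14), and the cause was not tested. Limma called 0 member events and 0 of all events, with 6 member events lower and 1 higher at an unadjusted p under 0.05.

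With each library left out in turn, the number of members lower was 5 to 8 and higher 0 to 0, partner genes lower 18 to 21 and higher 0 to 2, all genes lower 1676 to 3241 and higher 1770 to 3236. Over all events 0 to 52 were called against 48 with all libraries, and member events called were 0 to 1, lower at an unadjusted p 4 to 7, higher 0 to 2, and short exons lower 4 to 6. Family shares without overlap were 8 to 9. The Shank1 log2 fold change was -0.098 to 0.020 (0.020 without control replicate 1), and the share of Homer3 differed by -1.22 to 4.76 percentage points (-1.22 without L-DL KD replicate 1). Fewer libraries remain in these fits. Few junction reads, 28 to 107 per library for the Shank2 9 and 21 nt, Dlgap2, Homer1 and Homer2 events, limit the precision of PSI there.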
